A study of Mus musculus with 20 samples.

Results

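Adding a-CD4 to a combination of SD-101 and anti-PD-1 was examined in CD44+CD8+ effector T cells purified from mouse lungs that carried 4T1 tumours, a transplantable mammary carcinoma line. The comparison used 9 of the series' 20 arrays: 4 labelled SD-101+anti-PD-1+a-CD4 (called the a-CD4 group here) and 5 labelled SD-101+anti-PD-1. The remaining 11 arrays, 6 labelled SD-101 and 5 labelled Saline-CTRL, served only to estimate the spread and to place levels. Every group carried 4T1 tumours in the lung and, per the labels, was dosed intranasally; SD-101 is named there as a ligand of TLR9, a receptor for unmethylated CpG DNA. Dose, schedule, mouse strain, age and sex, and what a-CD4 did to CD4 T cells, are not given in the sources used here. Nor do the labels say whether numbered samples came from separate mice or pools, so the spread behind each p-value is that of these arrays and may be partly technical.

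CD8 T cells recognise peptides on MHC class I and, once activated, divide, secrete interferon-gamma and kill through granzymes and perforin. PD-1, encoded by Pdcd1, is an inhibitory receptor that activated T cells display, and antibodies to it release that brake. CD4 T cells include helpers that support CD8 responses and Foxp3-expressing regulatory cells that restrain them, and the series' title asks about the interplay of CD4 and CD8 T cells.

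All values below are log2 intensities of 1 probe set per gene over 17097 genes, and differences are the a-CD4 group minus SD-101+anti-PD-1, tested with limma and called at a Benjamini-Hochberg adjusted p under 0.05. Probe sets differ in response, so levels were compared between arrays and not between genes. In sorted material a lower value may mean fewer cells of a type or less RNA per cell, which cannot be told apart.

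Markers of the sorted population were high in both groups, with Cd3d, Cd8b1 and Cd44 averaging 11.2, 10.9 and 9.97 in the a-CD4 group, against 11.4, 11.1 and 9.56 in SD-101+anti-PD-1. Cd8a read 11.30, 9.45, 11.66 and 11.32 on the a-CD4 arrays, against 10.72, 10.79, 11.11, 10.90 and 11.11 on the SD-101+anti-PD-1 arrays. The a-CD4 replicate 2 array therefore stood well below every other array of the comparison, while the other 3 a-CD4 arrays were above all 5 SD-101+anti-PD-1 arrays. The same array was lowest for the mean of 14 measured T cell receptor complex and CD8 genes, at 8.55, against 10.07 to 10.29 on the other a-CD4 arrays and 9.61 to 10.05 on SD-101+anti-PD-1 arrays. Its median correlation with its own group was 0.965, where the other 8 arrays had 0.982 to 0.989. The a-CD4 replicate 1 array had the highest neutrophil marker mean of the comparison, 9.08, against 4.49 to 6.47 on the other a-CD4 arrays and 4.04 to 7.04 on SD-101+anti-PD-1 arrays.

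In all, 364 genes (2.13% of those tested) differed, of which 162 (0.948%) were higher and 202 (1.18%) lower with a-CD4. Changes of at least 2-fold numbered 48 upward and 114 downward, and the median log2 difference over all genes was 0.00. The groups did not overlap for 151 of the 162 higher and 167 of the 202 lower genes, beside 3.92% and 4.53% of all genes tested that were separated in those directions. Calls and separation come from the same arrays, so separation among called genes follows largely from the calling and is no further support. Setting the 2 comparison groups beside the other 11 arrays, the a-CD4 arrays lay above every other array of the series for 87 of the higher genes, whereas for 75 of the lower genes it was the SD-101+anti-PD-1 arrays that lay above every other array. Only 13 of the lower genes had a-CD4 arrays below all others, and only 3 of the higher genes (Gpihbp1, Sema7a and Lims1) had SD-101+anti-PD-1 arrays below all others. Over all 17097 genes tested, called or not, these 4 arrangements held for 185, 105, 35 and 40 genes, in that order. Counts of calls depended on single arrays: 84, 73, 94 and 81 genes were called without a-CD4 replicate 1, a-CD4 replicate 2, SD-101+anti-PD-1 replicate 1 or SD-101+anti-PD-1 replicate 4, and 0 with a-CD4 replicates 1 and 2 both left out, where limma gave 1293 genes an unadjusted p under 0.05.

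**Figure D1:**
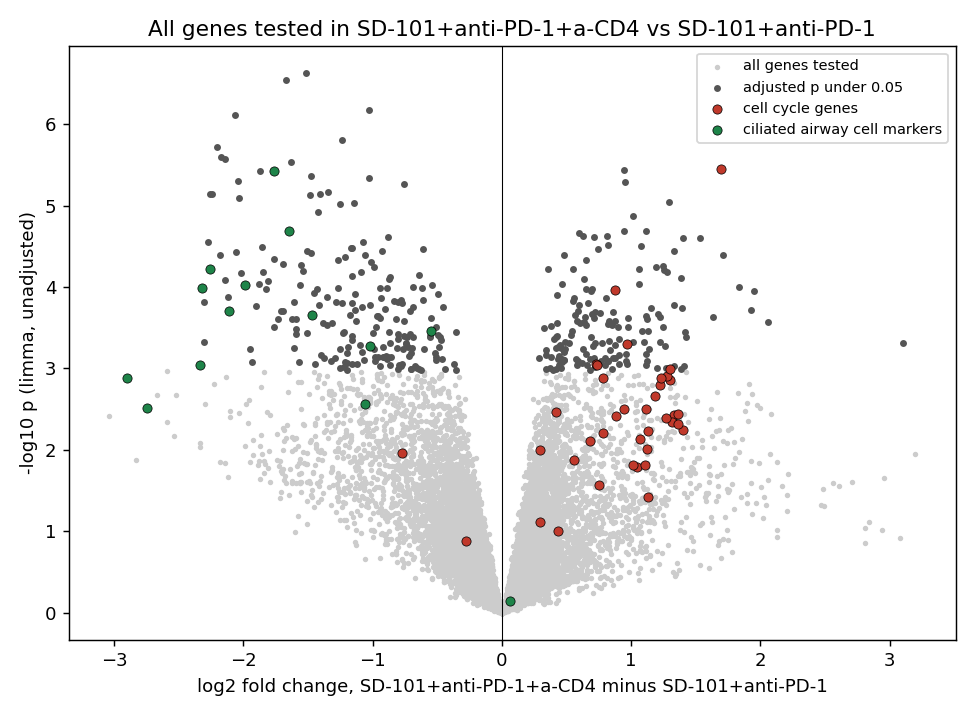
Log2 difference (a-CD4 group minus SD-101+anti-PD-1, horizontal axis) against -log10 of the unadjusted limma p (vertical axis) for 17097 genes; dark points are the 364 called genes, red points 38 cell cycle genes and green points 14 ciliated airway cell markers. Of the red points 36 lie right of 0, and of the green points 13 lie left of it.

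Of 40 listed cell cycle genes, which act in DNA replication and mitosis, 38 were measured, and 6 were higher with a-CD4, 0 lower and 32 not called (background 0.948% higher). Their median difference was 1.06, beside 0.00 over all genes, 36 of 38 differences were positive and 30 of 38 were separated upward without overlap, where 3.92% of all genes were. On the array level, the mean of the 38 genes was 7.902, 8.489, 8.002 and 8.006 in the a-CD4 group, against 7.03, 7.48, 7.48, 7.03 and 6.86 in SD-101+anti-PD-1. All 4 a-CD4 arrays were above the other group, and replicate 2, the array low in T cell genes, was the highest.

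The promoters of 3 called members are shown because the sequence elements known for cell cycle genes lie close to their start sites: the CHR element TTTGAA and the CCAAT box, found at late cell cycle genes, and the E2F-like site (TTTGGCGC or TTTCCCGC), found at replication genes. Only called members whose window held at least 1 of these elements could be shown, so the choice itself fixed that each window holds a match. Of 5 called members with a promoter, 1 held the CHR element, 4 a CCAAT box and 2 an E2F-like site. Each line gives 250 bases before to 50 after the start in RefSeq's table (GRCm38.p6), 5′ to 3′ on the gene's strand, with matches on either strand in capitals.
Kif11, chr19:37376132-37376431, plus strand: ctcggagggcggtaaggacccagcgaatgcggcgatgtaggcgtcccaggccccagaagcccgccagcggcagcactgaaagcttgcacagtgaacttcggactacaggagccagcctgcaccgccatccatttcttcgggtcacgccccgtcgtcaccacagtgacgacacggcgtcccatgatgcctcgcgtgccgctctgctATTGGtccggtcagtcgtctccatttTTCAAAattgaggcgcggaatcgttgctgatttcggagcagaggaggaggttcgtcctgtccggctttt
Rrm1, chr7:102441445-102441744, plus strand: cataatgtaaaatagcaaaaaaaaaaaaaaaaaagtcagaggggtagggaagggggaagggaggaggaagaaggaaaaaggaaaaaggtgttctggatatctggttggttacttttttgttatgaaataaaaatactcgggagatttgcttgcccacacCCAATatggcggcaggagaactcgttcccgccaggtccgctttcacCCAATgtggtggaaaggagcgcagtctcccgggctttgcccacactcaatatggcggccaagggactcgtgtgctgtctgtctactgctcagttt
Mcm3, chr1:20820263-20820562, minus strand: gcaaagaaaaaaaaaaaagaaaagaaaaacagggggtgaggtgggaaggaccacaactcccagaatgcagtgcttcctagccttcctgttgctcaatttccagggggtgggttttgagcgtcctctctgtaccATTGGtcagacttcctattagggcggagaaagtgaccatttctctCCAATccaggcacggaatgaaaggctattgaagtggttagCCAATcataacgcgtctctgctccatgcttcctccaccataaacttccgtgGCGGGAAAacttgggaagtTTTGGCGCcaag
Kif11 held 1 CHR match starting 19 bases before the start site and 1 CCAAT match starting 45 before it, Rrm1 held 2 CCAAT matches, and Mcm3 held 3 CCAAT and 2 E2F-like matches. Among the 162 higher genes, 137 had a promoter in the table, and of these 25.5% held the CHR element, 46.0% a CCAAT box and 10.9% an E2F-like site, against 13.3%, 38.4% and 2.47% of 13605 tested genes with a promoter. Among the 159 lower genes with a promoter the shares were 10.1%, 37.7% and 1.89%. Such matches describe the letters in these windows and do not show that a factor binds there.

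Kif11, the spindle motor that separates the poles in mitosis, read 6.50, 7.05, 6.92 and 6.83 on the a-CD4 arrays, against 5.11, 5.49, 5.60, 4.74 and 4.71 on SD-101+anti-PD-1 arrays. The groups were more than a log2 unit apart in their means and did not overlap, and every a-CD4 array was above every other array of the series. The difference was 1.70 (95% confidence interval 1.15 to 2.24, 3.24-fold, limma adjusted p = 0.00493), and it remained called in all 9 fits that left out 1 array. Rrm1, the large subunit of ribonucleotide reductase, was likewise higher by 0.88 (adjusted p = 0.0181), with 9.03, 9.43, 8.84 and 9.16 on a-CD4 arrays against 8.05, 8.54, 8.48, 8.21 and 7.92. Nusap1 and Tpx2, both spindle assembly factors, rose by 0.97 and 1.30 (adjusted p = 0.0363 and 0.0488). The second probe set of Nusap1, near the scale's bottom, was at 0.22. Mcm3 and Mcm5, subunits of the replicative helicase, rose by 0.73 and 0.74 (adjusted p = 0.0465 and 0.0468). Of the 6, only Kif11 remained called without a-CD4 replicate 2, where the adjusted p was 0.0751 for Rrm1, 0.112 for Nusap1 and 0.158 for Mcm3; the list's count was likewise 1 without a-CD4 replicate 1, SD-101+anti-PD-1 replicate 1 or SD-101+anti-PD-1 replicate 4. The count of 6 was 18 when only the 9 arrays compared were fitted, 21 with array weights, 19 higher and 1 lower with the T cell gene mean as a covariate, and 0 with a-CD4 replicates 1 and 2 both left out, where the median was 0.87.

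Mki67, the proliferation marker Ki-67, was among the 32 members not called. It read 9.39, 9.37, 9.41 and 9.26 on a-CD4 arrays, against 8.19, 8.58, 8.81, 8.25 and 8.53 on SD-101+anti-PD-1 arrays. Both groups were tight and separate, and the limma difference of 0.89 had an unadjusted p of 0.00387 and an adjusted p of 0.0887. The exact two-sided permutation test of this single gene gave p = 0.00794, the smallest that 126 splits of 9 arrays allow. Exact permutation p-values here and below are not adjusted for the number of genes, so they do not compare with adjusted limma p-values. Ccnd2 and Ccnd3, the D-type cyclins on the list, were the 2 members with negative differences, -0.77 and -0.28 (adjusted p = 0.138 and 0.450).

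Beyond the list, 4 further genes of mitosis and replication stood among the 12 largest rises. Ncapg, a condensin subunit, read 7.04, 7.997, 6.87 and 6.96 on a-CD4 arrays, against 5.53, 5.81, 6.15, 4.99 and 5.43 on SD-101+anti-PD-1 arrays, with a difference of 1.64 (adjusted p = 0.0253). Cdca2, which targets a phosphatase to mitotic chromatin, rose by 1.42 (adjusted p = 0.0326), Sgo1, the protector of centromeric cohesion, by 1.41 (adjusted p = 0.0310), and Gins1, of the replicative helicase complex, by 1.405 (adjusted p = 0.0470). For all 4, every a-CD4 array was above every other array of the series. Without a-CD4 replicate 2 their adjusted p-values were 0.109, 0.0979, 0.129 and 0.186, in that order.

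The genes in this paragraph were chosen after their values were seen. Foxm1, a driver of mitotic gene expression, read 4.96, 6.11, 5.17 and 5.08 on a-CD4 arrays, against 4.06, 4.64, 4.29, 4.22 and 4.06 on SD-101+anti-PD-1 arrays, a difference of 1.08 (adjusted p = 0.0120) that remained called in all 9 fits. Of its 4 probe sets 1 had the opposite sign, at -0.10. Mybl2, which acts with the DREAM complex at late cell cycle promoters, rose by 1.25 (adjusted p = 0.0145; 0.0525 without a-CD4 replicate 2 and 0.0514 without SD-101+anti-PD-1 replicate 4). Cenpa, the centromeric histone variant, rose by 1.24 (adjusted p = 0.0145; 0.0573 without a-CD4 replicate 2), and Ncaph, another condensin subunit, by 1.01 (adjusted p = 0.00798, called in all 9 fits).

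**Figure D2:**
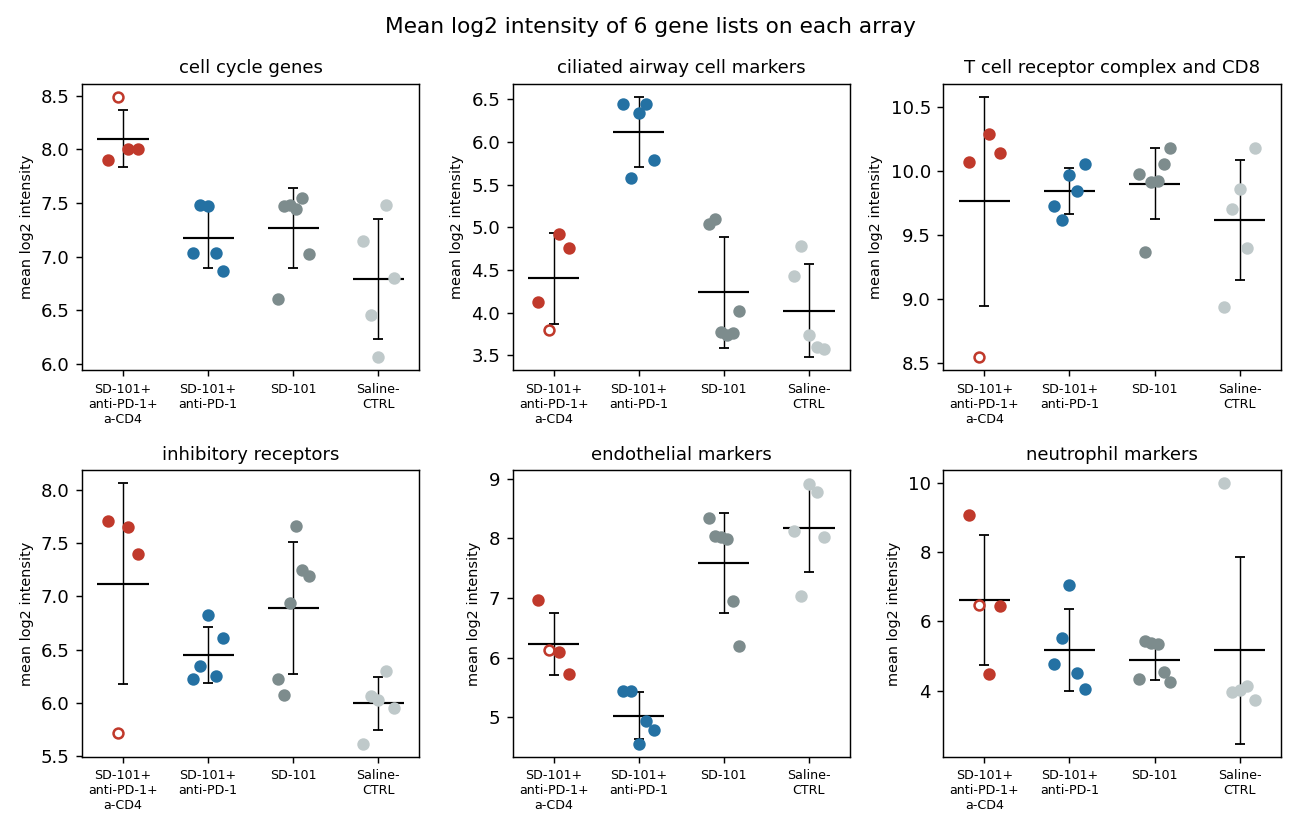
Mean log2 intensity of 6 gene lists (vertical axes) on each of 20 arrays, by group; horizontal bars are group means, whiskers 1 SD, and the open circle is a-CD4 replicate 2. Cell cycle genes are highest in the a-CD4 group, ciliated airway cell markers highest in SD-101+anti-PD-1, and a-CD4 replicate 2 lies apart in the T cell and inhibitory receptor panels.

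Other large rises belonged to different functions. Smpdl3b, a membrane-anchored phosphodiesterase, read 7.71, 8.04, 7.44 and 7.23 on a-CD4 arrays, against 5.76, 6.16, 6.60, 5.92 and 5.91 on SD-101+anti-PD-1 arrays. The groups did not overlap, the difference was 1.54 (2.90-fold, adjusted p = 0.0111), and the call was kept in all 9 fits. Bcl2l15, a member of the Bcl-2 family of apoptosis regulators, rose by 1.71 (adjusted p = 0.0121) with the same stability, with values of 6.25, 4.81, 4.04 and 5.33 against 3.25, 3.31, 3.996, 3.02 and 3.42. Penk, the precursor of enkephalin opioid peptides, read 7.46, 6.67, 6.18 and 8.36 on a-CD4 arrays, against 4.97, 6.49, 4.92, 5.25 and 5.01. The Penk ranges overlapped because SD-101+anti-PD-1 replicate 2 was high; the difference was 1.84 (adjusted p = 0.0178; 0.0627 without a-CD4 replicate 1, 0.0579 without SD-101+anti-PD-1 replicate 1 and 0.0535 without SD-101+anti-PD-1 replicate 4). Mean Penk was 4.83 in SD-101 and 5.06 in Saline-CTRL, near the low end of the SD-101+anti-PD-1 arrays. Ier5l, of the immediate early response family, rose by 2.06 (adjusted p = 0.0264; up to 0.113 without a-CD4 replicate 2, and called in 3 of 9 fits).

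Fkbp5, a co-chaperone of steroid receptors that glucocorticoids induce, was named after its values were seen. It read 9.25, 9.08, 8.13 and 8.84 on a-CD4 arrays, against 7.05, 8.12, 7.85, 7.46 and 7.25 on SD-101+anti-PD-1 arrays. All a-CD4 arrays were above the highest value of every other group, by a narrow margin for replicate 3, and the difference was 1.28 (adjusted p = 0.0148; 0.0613 and 0.0626 without a-CD4 replicates 1 and 2). Of the 3 probe sets of Fkbp5 2 were called, and the smallest difference was 0.069. Il15ra, the receptor chain that presents interleukin-15 to T cells, was 7.08, 7.24, 7.24 and 6.94 on a-CD4 arrays, against 6.42, 6.36, 6.52, 5.76 and 6.54. This rise of 0.81 (adjusted p = 0.0207; up to 0.0739 without a-CD4 replicate 2) was the 1 call among 16 measured costimulation and survival genes (background 0.948% higher). Their median difference was -0.05, and 0.31 without a-CD4 replicate 2. Cx3cr1, the fractalkine receptor of effector CD8 cells and monocytes, rose by 1.08 (adjusted p = 0.0307, called in 2 of 9 fits), with overlapping ranges of 4.69 to 5.92 and 4.03 to 4.99. It was the 1 call (background 0.948% higher) among 13 chemokine receptors, median 0.05, and among 8 memory and naive-associated surface genes. The latter had a median of -0.13, and 0.22 without a-CD4 replicate 2.

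Among glycolytic enzymes 1 of 14 measured was called higher (background 0.948%) and 0 lower, with a median difference of 0.58 and 13 positive differences. Of the 14, 5 were separated upward, where 3.92% of all genes were. An unadjusted limma p under 0.05 was found for 9, all higher, where 17.9% of all genes had one in either direction. The 1 call was Gapdh, which read 12.46, 12.65, 12.25 and 12.34 on a-CD4 arrays, against 11.83, 12.12, 11.80, 11.81 and 11.66, a difference of 0.58 (adjusted p = 0.0263, and up to 0.109 without a-CD4 replicate 2). Genes of oxidative phosphorylation had 0 calls by limma in 29 (8 at an unadjusted p under 0.05), a median of 0.10 and 24 positive differences.

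**Figure D3:**
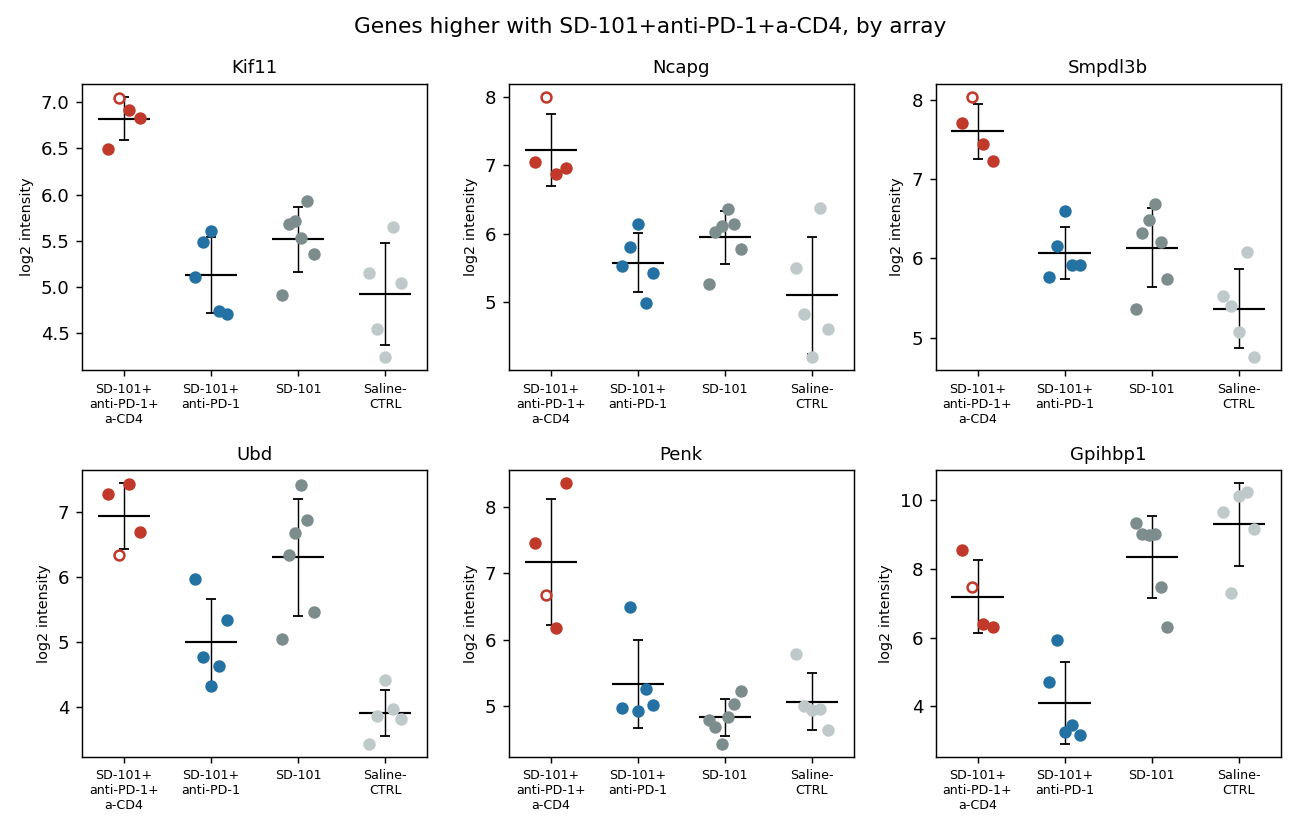
Log2 intensity (vertical axes) of Kif11, Ncapg, Smpdl3b, Ubd, Penk and Gpihbp1 on each array, by group, with group mean and 1 SD; the open circle is a-CD4 replicate 2. Kif11, Ncapg and Smpdl3b are highest in the a-CD4 group of all 4 groups, while Gpihbp1 is lowest in SD-101+anti-PD-1.

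Cytotoxic genes did not pass the test. Of 17 measured cytotoxic effector molecules 0 were called by limma (the lowest adjusted p was 0.270, and 1 had an unadjusted p under 0.05), with a median difference of 0.23 and 13 positive differences. Gzmb, granzyme B, read 11.12, 9.27, 11.50 and 10.91 on a-CD4 arrays, against 10.05, 10.18, 11.19, 10.12 and 10.45 on SD-101+anti-PD-1 arrays (difference 0.30, adjusted p = 0.789). Prf1, perforin, read 9.25, 7.05, 9.16 and 8.34 against 7.43, 7.75, 7.84, 7.64 and 7.92 (difference 0.73, adjusted p = 0.384). For both genes a-CD4 replicate 2 was the lowest array of the comparison, and without it the list median was 0.66 and still 0 of 17 were called. Without a-CD4 replicate 1 the median was -0.014, and array weights gave 2 calls, both higher. The members of smallest p were Klrc1, an NKG2 receptor chain, at 0.83 (adjusted p = 0.270), and Gzmm, granzyme M, at -0.88 (adjusted p = 0.324).

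Pdcd1, Havcr2, Lag3 and Ctla4, all inhibitory receptors of activated T cells, read higher on 3 of the 4 a-CD4 arrays and did not pass the test over all 4. Pdcd1 read 9.35, 7.25, 9.06 and 9.10 on a-CD4 arrays, against 7.16, 7.64, 7.91, 7.23 and 7.33 on SD-101+anti-PD-1 arrays. Replicates 1, 3 and 4 were each more than a log2 unit above the highest SD-101+anti-PD-1 array, and replicate 2 was inside that group's range. The difference was 1.24 (95% confidence interval 0.26 to 2.21, adjusted p = 0.164, exact permutation p = 0.0397) and 1.72 without replicate 2 (adjusted p = 0.0832). Havcr2, the receptor Tim-3, read 7.58, 4.77, 7.15 and 6.41 against 4.36, 4.91, 5.55, 3.63 and 4.97 (difference 1.80, adjusted p = 0.121, exact permutation p = 0.0556), and the difference was 2.37 without replicate 2 (adjusted p = 0.0751). Lag3 read 9.19, 6.34, 9.05 and 8.42 against 6.88, 7.10, 7.55, 7.04 and 7.28 (difference 1.08, adjusted p = 0.262, exact permutation p = 0.119), and the difference was 1.72 without replicate 2 (adjusted p = 0.0670). Ctla4 showed the same arrangement, with 5.87 on replicate 2 beside 7.81 to 8.11 on the other a-CD4 arrays. Its difference was 1.48 (adjusted p = 0.171, exact permutation p = 0.0476), and 2.0001 without replicate 2 (adjusted p = 0.117). Means in SD-101 and Saline-CTRL were 7.26 and 6.09 for Pdcd1, 5.38 and 3.90 for Havcr2, and 7.08 and 5.33 for Lag3. For Ctla4 they were 7.04 and 6.38, so SD-101+anti-PD-1, at 5.94, was the lowest group on average. Single SD-101 arrays reached 8.04 for Ctla4.

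Over the 10 measured inhibitory receptors 0 were called by limma (lowest adjusted p 0.0805, Cd160 at 1.61, and 5 at an unadjusted p under 0.05, where 17.9% of all genes were) and the median difference was 0.88, with 6 positive and 4 negative. Leaving out a-CD4 replicate 2 gave a median of 1.45 and 2 calls, 1 of them Cd160 at 2.12 (adjusted p = 0.0413), and limma with array weights gave 6 calls. That array also carried the lowest T cell gene mean, and the part of its T cell content in these values was not tested beyond a fit with the T cell gene mean as a covariate, in which 2 of 10 were called and the median was 0.95. Entpd1, the ectonucleotidase CD39, was at 0.69 (adjusted p = 0.295), and Btla, Vsir, Cd200r1 and Lair1 had differences between -0.40 and -0.13. The list mean was 5.72 to 7.71 on a-CD4 arrays and 6.22 to 6.82 on SD-101+anti-PD-1 arrays. It was 6.07 to 7.66 on SD-101 arrays and 5.61 to 6.30 on Saline-CTRL arrays, so high levels were not particular to the a-CD4 group.

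**Figure D4:**
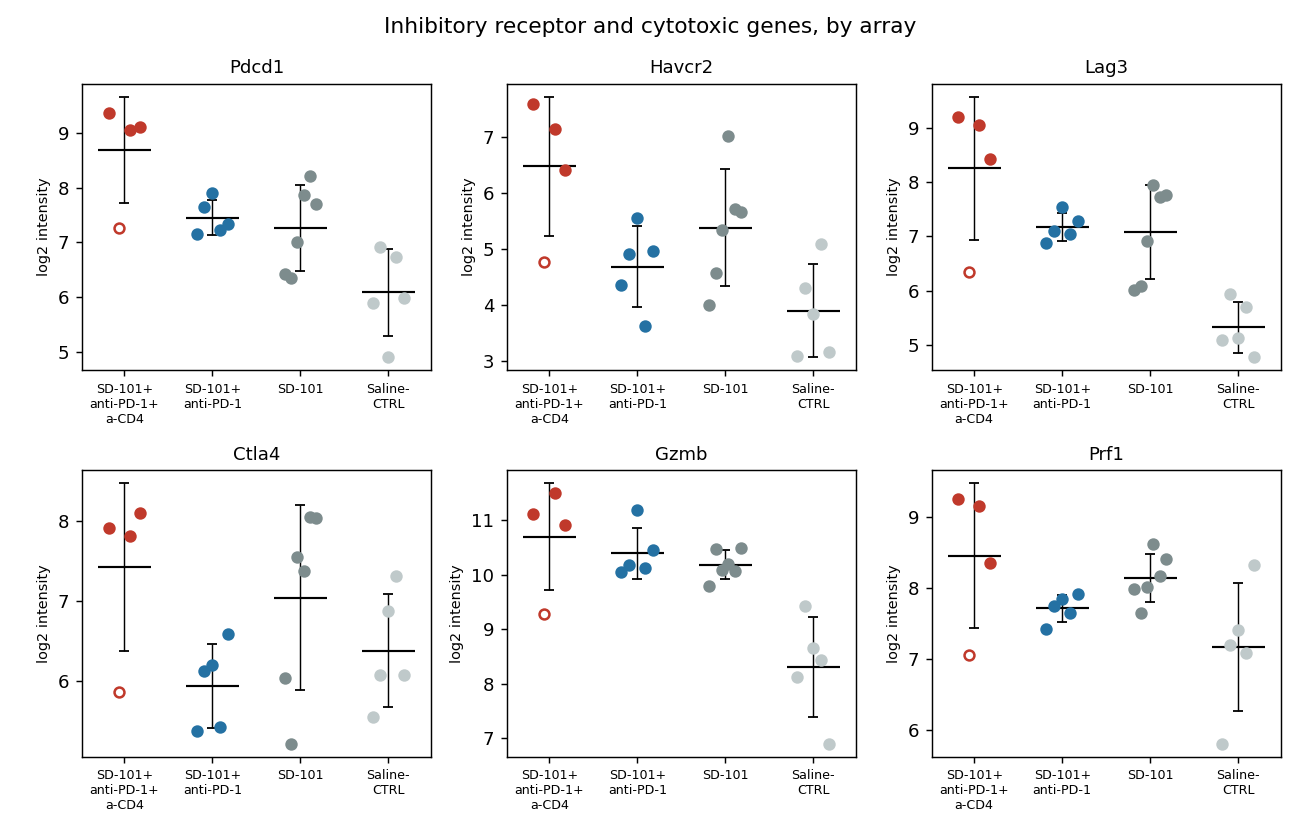
Log2 intensity (vertical axes) of Pdcd1, Havcr2, Lag3, Ctla4, Gzmb and Prf1 on each array, by group, with group mean and 1 SD; the open circle is a-CD4 replicate 2. In the 4 inhibitory receptor panels the other 3 a-CD4 arrays lie above all SD-101+anti-PD-1 arrays and replicate 2 lies within or below that group's range.

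Among effector cytokines Csf2, encoding GM-CSF, fell: it read 6.17, 5.76, 7.39 and 6.27 on a-CD4 arrays, against 8.53, 7.74, 7.77, 8.38 and 8.39 on SD-101+anti-PD-1 arrays. The groups did not overlap, and means were 8.20 in SD-101 and 7.97 in Saline-CTRL. The difference was -1.76 (adjusted p = 0.0282; called in 3 of 9 fits, and 0.118 without a-CD4 replicate 2). Ifng, interferon-gamma, read 9.92, 7.58, 9.91 and 9.29 against 8.49, 8.34, 8.63, 7.93 and 9.01 (difference 0.69, adjusted p = 0.559), and the difference was 1.23 without a-CD4 replicate 2 (adjusted p = 0.330). Tnf and Il2 had differences of -0.32 and -0.62 (adjusted p = 0.803 and 0.319). Of 16 cytokine and death ligand genes Csf2 was the 1 call (background 1.18% lower). The median was -0.07, and 0.21 without a-CD4 replicate 2.

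Among 22 measured effector and memory transcription factors 1 was lower (background 1.18%) and 0 higher. Their median was -0.09, and 0.025 without a-CD4 replicate 2. Bach2, a repressor that restrains effector differentiation, read 6.16, 5.55, 6.98 and 6.72 on a-CD4 arrays, against 7.30, 7.17, 7.21, 7.59 and 7.91. Every a-CD4 array was below every other array of the series, and the difference was -1.08 (adjusted p = 0.0403; called in 3 of 9 fits, and 0.158 without a-CD4 replicate 2). Of its 3 probe sets 1 was called, and all had negative differences, the smallest -0.18. Lef1, a factor of naive and memory cells, was at -1.21 (adjusted p = 0.126), and Tbx21, encoding T-bet, at 0.32 (adjusted p = 0.703). Tcf7, Tox and Il7r are not analysed here.

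Interferon-linked genes gave 2 calls. Of 25 measured type I interferon-stimulated genes 0 were called by limma (lowest adjusted p 0.247, and 1 at an unadjusted p under 0.05), with a median of -0.15; the 2 of smallest p were Oas2 at -0.85 and Ifi27l2a at -0.70. Of 23 genes linked to interferon-gamma, GTPases and antigen presentation, 2 were higher (background 0.948%) and 0 lower. Their median was 0.22, with 19 positive differences. Ubd, the ubiquitin-like protein FAT10 induced by inflammatory cytokines, read 7.27, 6.33, 7.42 and 6.69 on a-CD4 arrays, against 5.97, 4.77, 4.31, 4.63 and 5.34. Its groups did not overlap, and SD-101 arrays averaged 6.30 and Saline-CTRL arrays 3.90. The rise of 1.93 (adjusted p = 0.0234) was lost without 1 of 3 arrays, with an adjusted p of 0.0757 without a-CD4 replicate 1, just above the threshold without SD-101+anti-PD-1 replicate 3, and 0.0718 without SD-101+anti-PD-1 replicate 4. Psmb10, an immunoproteasome subunit, rose by 0.46 with overlapping ranges (10.64 to 11.21 against 10.29 to 10.75; adjusted p = 0.0485, called in 3 of 9 fits).

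CD4 transcripts were near the bottom of the arrays' scale in both groups. Cd4 read 3.31, 3.29, 3.51 and 3.15 on a-CD4 arrays, against 2.80, 2.95, 3.06, 3.43 and 3.17 on SD-101+anti-PD-1 arrays (difference 0.23, adjusted p = 0.478, exact permutation p = 0.143), where array medians over all probe sets were 3.52 to 3.75. The sort on CD8 would remove CD4 T cells, so these values do not measure how far a-CD4 acted. Foxp3, the regulatory T cell factor, was the 1 call (background 0.948% higher) among 15 measured CD4 and regulatory T cell markers, whose median was 0.05. It read 4.06, 4.01, 4.46 and 4.19 against 3.39, 3.35, 3.46, 3.93 and 3.60, low but without overlap, a difference of 0.63 (adjusted p = 0.0265; called in 2 of 9 fits). Il2ra, the high-affinity interleukin-2 receptor chain, was at -0.73 (adjusted p = 0.263), and Cd40lg, the helper ligand, at 0.05 (adjusted p = 0.903). Tlr9 itself was at 2.77 to 3.23 on a-CD4 arrays and 2.61 to 2.89 on SD-101+anti-PD-1 arrays (adjusted p = 0.519).

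Genes of motile cilia fell; these are structures that ciliated airway cells and not T cells carry. Of 17 listed ciliated airway cell markers 14 were measured, and 10 were lower, 0 higher and 4 not called (background 1.18% lower). The median difference was -1.88, and 11 of 14 were separated downward, where 4.53% of all genes were. The mean of the 14 was 4.12, 3.80, 4.93 and 4.75 on a-CD4 arrays, against 6.44, 5.58, 6.35, 6.45 and 5.79 on SD-101+anti-PD-1 arrays. SD-101 arrays spanned 3.74 to 5.10 and Saline-CTRL arrays 3.58 to 4.79, so SD-101+anti-PD-1 was the group that stood apart and the a-CD4 group lay near the other groups.

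Foxj1, the transcription factor that drives motile ciliogenesis, read 4.62, 4.35, 5.14 and 5.04 on a-CD4 arrays, against 6.98, 5.82, 6.76, 6.88 and 6.30 on SD-101+anti-PD-1 arrays. The groups did not overlap, and the SD-101+anti-PD-1 arrays were above every other array of the series. Its difference was -1.76 (95% confidence interval -2.33 to -1.19, adjusted p = 0.00493), called in all 9 fits. Dnah9, an axonemal dynein heavy chain, fell by 1.64 on the log2 scale (adjusted p = 0.0111, called in all 9 fits); its second probe set, near the scale's bottom, was at 0.06. Rsph1, of the radial spoke, fell by 2.26 (adjusted p = 0.0145; 0.0645 without a-CD4 replicate 2 and 0.0504 without SD-101+anti-PD-1 replicate 4), and Tppp3, a tubulin-binding protein, was at -1.99 (adjusted p = 0.0178; up to 0.0665 without a-CD4 replicate 2). Of 7 called members with a promoter, 3 held GTTGCC, a half-site of the X-box element that RFX factors read at ciliary genes. Among these, the promoter of Fam183b, a called member at -2.11 (adjusted p = 0.0234), is shown. The choice itself therefore fixed that its window holds a match, and it holds 2. Matches on either strand are in capitals.
Fam183b, chr11:58801911-58802210, minus strand: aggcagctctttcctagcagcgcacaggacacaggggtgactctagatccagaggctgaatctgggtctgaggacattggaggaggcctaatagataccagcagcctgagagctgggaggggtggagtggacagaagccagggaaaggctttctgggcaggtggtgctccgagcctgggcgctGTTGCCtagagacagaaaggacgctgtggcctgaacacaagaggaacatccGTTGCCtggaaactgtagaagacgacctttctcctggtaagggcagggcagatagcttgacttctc
In that window the half-site GTTGCC was found in 25.8% of 159 lower genes with a promoter, 16.1% of 137 higher genes and 12.9% of 13605 tested genes.

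The genes of smallest p in the whole comparison were of the same kind and were picked after their values were seen. Tekt2, a tektin of the axoneme, read 3.14, 3.002, 3.22 and 3.46 on a-CD4 arrays, against 5.14, 4.52, 5.05, 5.01 and 4.64. Cfap54, a cilium-associated protein, read 2.77, 2.59, 2.89 and 2.94 against 4.50, 3.89, 4.35, 4.82 and 4.01. In both genes the a-CD4 values sat at the low end of the scale, as in SD-101 and Saline-CTRL (means of 3.05 and 2.84 for Tekt2), and the differences were -1.67 and -1.52 (both adjusted p = 0.00244, called in all 9 fits). Dnah6, another axonemal dynein, was at -2.07 (adjusted p = 0.00324, called in all 9 fits). The second probe set of Cfap54, near the scale's bottom, was at -0.026.

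Of the 12 largest falls, 8 read higher on the SD-101+anti-PD-1 arrays than on any other array of the series: Cfap126 (-2.33), Pifo (-2.32), Nme5 (-2.30), Rsph1 (-2.26), Cdhr4 (-2.24), Calml4 (-2.18), Sox2 (-2.17) and Eno4 (-2.14), with adjusted p from 0.00493 to 0.0468. Sox2, a factor of conducting airway epithelium, read 2.46, 2.47, 2.87 and 2.91 on a-CD4 arrays, against 5.43, 4.20, 5.27, 5.47 and 3.88, and was called in all 9 fits, as were Cdhr4 and Eno4. Without a-CD4 replicate 2 the adjusted p was 0.181 for Cfap126, 0.0751 for Pifo, 0.0830 for Nme5 and 0.0565 for Calml4. Over the marker list, 10 calls became 2 without a-CD4 replicate 2 or SD-101+anti-PD-1 replicate 4 and 3 without a-CD4 replicate 1 or SD-101+anti-PD-1 replicate 1, while the median kept between -2.10 and -1.64.

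**Figure D5:**
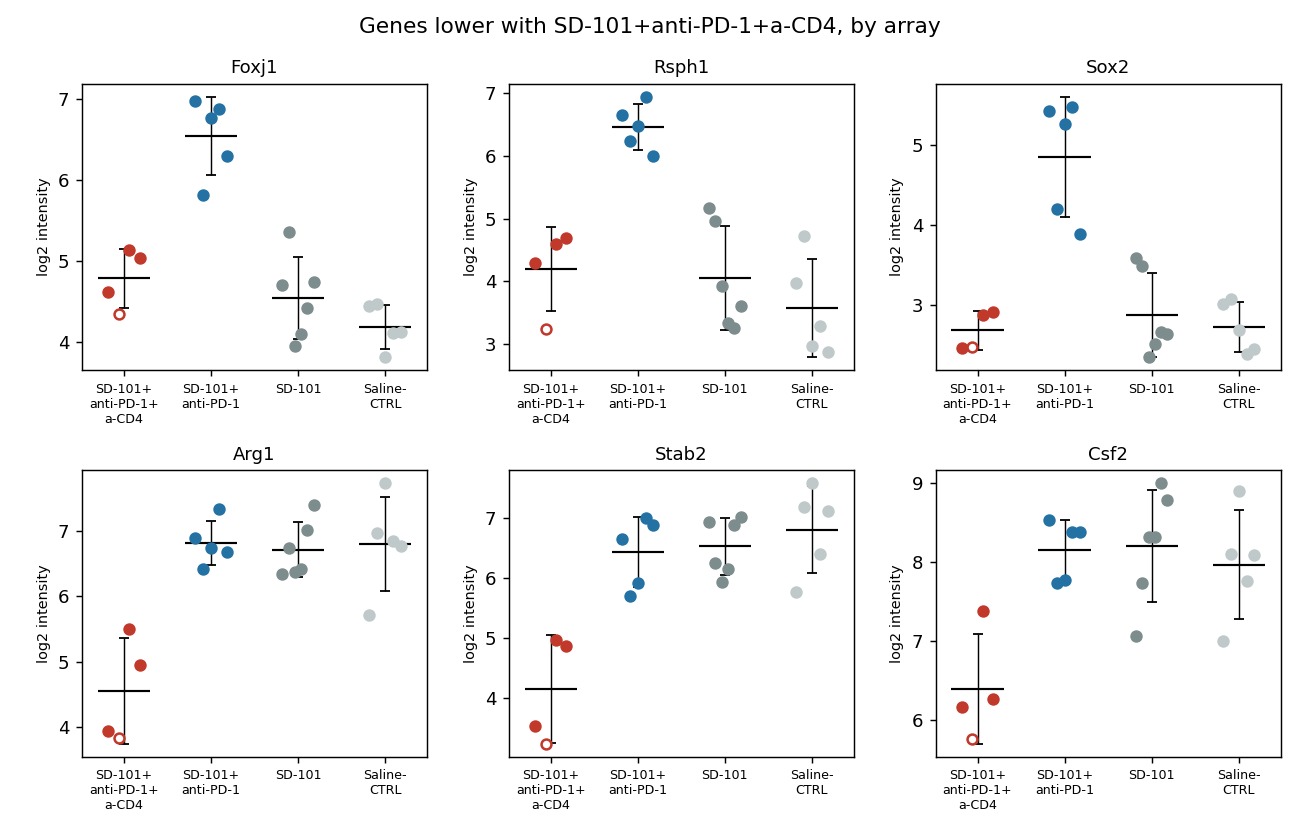
Log2 intensity (vertical axes) of Foxj1, Rsph1, Sox2, Arg1, Stab2 and Csf2 on each array, by group, with group mean and 1 SD; the open circle is a-CD4 replicate 2. Foxj1, Rsph1 and Sox2 are highest on the SD-101+anti-PD-1 arrays, Arg1 and Stab2 are lowest on the a-CD4 arrays of all 20 arrays, and the Csf2 groups of the comparison do not overlap.

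Secretory cells of the airway gave large negative differences that did not pass the test. Of 15 airway secretory cell markers 0 were called by limma (lowest adjusted p 0.0881, and 8 at an unadjusted p under 0.05, where 17.9% of all genes were). All 15 differences were negative, and the median was -1.47. Scgb3a2, a secretoglobin, read 7.69, 5.71, 8.97 and 9.26 on a-CD4 arrays, against 10.76, 10.24, 11.18, 11.46 and 11.09 on SD-101+anti-PD-1 arrays. The groups did not overlap, the a-CD4 arrays spread over more than 3 log2 units, and the difference was -3.04 (adjusted p = 0.0881). Cyp2f2, a club cell cytochrome, was at -2.54 (adjusted p = 0.113). Alveolar epithelial markers had 0 calls by limma in 13 (4 at an unadjusted p under 0.05) and a median of -0.68. Likewise, 4T1 carcinoma and general epithelial markers had 0 calls in 16 (6 unadjusted) and a median of -0.52. The mean of the 15 airway secretory markers was 4.29 to 5.79 on a-CD4 arrays and 6.27 to 6.96 on SD-101+anti-PD-1 arrays. SD-101 arrays spanned 4.57 to 6.78 and Saline-CTRL arrays 4.61 to 5.92, so SD-101+anti-PD-1 was the highest group on average. The part of airway cell RNA in the ciliary falls was not tested.

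Genes of another kind were lowest in the a-CD4 group. Arg1, arginase 1, which macrophages and type 2 innate lymphoid cells are known to express, read 3.93, 3.83, 5.51 and 4.95 on a-CD4 arrays, against 6.89, 6.41, 6.74, 7.33 and 6.68 on SD-101+anti-PD-1 arrays. The SD-101 arrays (6.35 to 7.41) and Saline-CTRL arrays (5.72 to 7.73) were also all above the a-CD4 arrays. Its difference was -2.26 (95% confidence interval -3.03 to -1.49, adjusted p = 0.00555), called in all 9 fits. Arg1 was the 1 call (background 1.18% lower) among 22 measured macrophage and monocyte markers, whose median was 0.00 and whose differences ran from -2.26 to 0.83. Of the 22, 2 had an unadjusted limma p under 0.05, both lower. Csf1r, Adgre1, C1qa and Marco averaged 3.81, 3.15, 3.22 and 2.85 on a-CD4 arrays, against 3.83, 3.09, 3.10 and 2.94 on SD-101+anti-PD-1 arrays. These genes were picked after their values were seen. Their averages lay near or below the array medians of 3.52 to 3.75, so a fall could hardly show in them. The mean of all 22 markers was 4.51 to 5.24 on a-CD4 arrays and 4.66 to 5.11 on SD-101+anti-PD-1 arrays, with 11 positive and 11 negative differences.

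Stab2, a scavenger receptor for hyaluronan, had the same pattern, with 3.54, 3.25, 4.97 and 4.88 on a-CD4 arrays, against 6.65, 5.71, 5.92, 7.004 and 6.89. The SD-101 arrays (5.93 to 7.01) and Saline-CTRL arrays (5.77 to 7.57) were above the a-CD4 arrays as well, and the difference was -2.28 (adjusted p = 0.0118, called in all 9 fits). Cysltr1, a cysteinyl leukotriene receptor, fell by 2.14 (adjusted p = 0.0165, and up to 0.0687 without a-CD4 replicate 2) with ranges that overlapped through a-CD4 replicate 4. Cckar, the cholecystokinin A receptor, fell by 2.31 (adjusted p = 0.0357, called in 2 of 9 fits) but did not have this pattern. It averaged 3.23 in the a-CD4 group, 5.54 in SD-101+anti-PD-1, 3.57 in SD-101 and 3.85 in Saline-CTRL, so SD-101+anti-PD-1 stood apart. Chosen after their values were seen, Rgs18, a regulator of G protein signalling, Cnr2, the cannabinoid receptor of immune cells, and Acvr1b, an activin receptor, were lower in the a-CD4 group than in every other array. Their differences were -1.83, -1.16 and -0.69 (adjusted p = 0.0179, 0.0344 and 0.0178), and without a-CD4 replicate 2 the adjusted p-values were 0.0751, 0.139 and 0.0750. Of the 2 probe sets of Acvr1b 1 had the opposite sign, at 0.035.

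Endothelial markers gave 1 called rise. Gpihbp1, which carries lipoprotein lipase across capillary endothelium, was the largest rise of the comparison: 8.57, 7.48, 6.40 and 6.32 on a-CD4 arrays, against 4.70, 5.92, 3.24, 3.45 and 3.16 on SD-101+anti-PD-1 arrays. The difference was 3.10 (8.57-fold, adjusted p = 0.0359; called in 3 of 9 fits, and 0.120 without a-CD4 replicate 1). SD-101 averaged 8.36 and Saline-CTRL 9.30, so both groups of the comparison were below them on average and SD-101+anti-PD-1 was the lowest. Of 19 measured endothelial markers 1 was higher (background 0.948%), 0 lower and 18 not called, and the median was 1.29. Of the 19, 10 were separated upward, where 3.92% of all genes were. An unadjusted limma p under 0.05 was found for 12, all higher, where 17.9% of all genes had one in either direction. Plvap and Flt1 were at 1.98 and 1.83 (adjusted p = 0.0771 and 0.0673). Sema7a, a membrane-anchored semaphorin, rose by 1.95 (adjusted p = 0.0184; up to 0.0690 without a-CD4 replicate 1) and was likewise lowest in SD-101+anti-PD-1. The mean of the 19 markers was 5.72 to 6.96 on a-CD4 arrays and 4.55 to 5.44 on SD-101+anti-PD-1 arrays; the part of endothelial RNA in these rises was not tested.

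Stromal and muscle markers each gave 1 fall. Lum, the matrix proteoglycan lumican, read 5.64, 5.40, 6.10 and 6.98 on a-CD4 arrays, against 7.36, 7.36, 7.44, 7.53 and 7.45, a difference of -1.397 (adjusted p = 0.0425; called in 1 of 9 fits, and 0.163 without a-CD4 replicate 2). It was the 1 call in 17 fibroblast and smooth muscle markers (background 1.18% lower), median -0.23. Myl7, the atrial myosin light chain, fell by 1.29 (adjusted p = 0.0214; called in 5 of 9 fits, and 0.0820 without a-CD4 replicate 2). It was the 1 call in 8 adipocyte and muscle markers (background 1.18% lower), median -0.32.

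Neutrophil markers differed between arrays more than between groups. S100a8, a calcium-binding protein abundant in neutrophils, read 11.90, 9.02, 4.62 and 8.59 on a-CD4 arrays, against 4.76, 6.82, 9.31, 3.33 and 3.05 on SD-101+anti-PD-1 arrays. Both groups spanned more than 6 log2 units, and the difference of 3.08 was not called (adjusted p = 0.429). Of 12 neutrophil markers 0 were called (lowest adjusted p 0.383), and 0 had an unadjusted p under 0.05; their median was 1.25, and 0.53 without a-CD4 replicate 1. B cell markers had 0 calls by limma in 11 (3 unadjusted) and a median of -0.41, with Fcer2a and Cd79b at -1.10 and -1.06 (adjusted p = 0.0802 and 0.105), and natural killer cell markers had 0 in 10 (1 unadjusted) and a median of -0.03.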

How the data were processed

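RNA of CD44+CD8+ cells was measured on mouse arrays, and the deposited values are log2 intensities of 45141 probe sets on 20 arrays (range 1.78 to 13.44, array medians 3.52 to 3.75). The submitters' processing notes name RMA, affy, limma and the build mm8, without versions or roles; background correction and summarisation by the authors were not repeated, and signal over background is not given. After 104 control probe sets were left out, 28898 probe sets had 1 symbol, 551 several and 15692 none in the platform annotation; the probe set with the highest mean over all 20 arrays stood for each of 17097 genes, 7180 of which had several. limma 3.58.1 (R 4.3.3) fitted 4 group means to these log2 values, tested on simulated data first, with Benjamini-Hochberg adjustment over all genes. Single genes had an exact two-sided permutation test, without adjustment for the number of genes. Intervals are 95% confidence intervals from limma, unadjusted. The number of arrays limits precision.

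The members and lists were chosen with earlier results of these data known. Named genes were the 12 largest called rises and falls, up to 4 called members of a list (2 of smallest p where none was called), and 23 single genes, of which 3 were not measured; any others were picked after their values were seen. The 37 lists were described by counts and medians only. Same-numbered arrays of the groups had correlations of -0.07, 0.37, 0.01 and 0.07, so the numbers were not treated as pairs. No 2 arrays held identical values.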

Additional observations from a re-analysis of the deposited data

Results flagged for a closer look

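The 236 sets of 4 or 5 arrays examined (named genes and list means within a group) share arrays and genes, so they are not independent. No chance rate is therefore set beside their count. In 21 of them, the highest or lowest array stood farther from its neighbour than Dixon's 95% critical value allows. Most concern a-CD4 replicate 2, which was high in genes of division: Ncapg read 7.997 there beside 6.87 to 7.04 on the other a-CD4 arrays, Sgo1 7.61 beside 6.78 to 6.85, and Gins1 7.94 beside 6.82 to 6.99.

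The same array was low in several T cell genes and in some others. Cd8a read 9.45 beside 11.30 to 11.66 on the other a-CD4 arrays, Cd8b1 9.68 beside 11.28 to 11.43, Pdcd1 7.25 beside 9.06 to 9.35, Ctla4 5.87 beside 7.81 to 8.11, and Rgs18 3.002 beside 4.06 to 4.23. Its list means were low for the T cell receptor complex and CD8 (8.55), inhibitory receptors (5.72), effector cytokines and death ligands (5.79), effector and memory transcription factors (6.48), costimulation and survival (6.86), memory and naive-associated surface genes (7.73), tissue residency genes (7.15), chemokine receptors (5.20) and alveolar epithelial markers (8.29).

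In SD-101+anti-PD-1, replicate 2 was high for Penk (6.49 beside 4.92 to 5.25) and low for the chemokine receptor mean (5.58 beside 5.83 to 5.88). Replicate 4 of that group was low for Il15ra (5.76 beside 6.36 to 6.54), and replicate 3 was high for the neutrophil granule gene Ngp (7.21 beside 2.51 to 3.78).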

How the results depend on the processing

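The count of 364 called genes (162 higher, 202 lower) became 149 (100, 49) when only genes above the median level were tested, 1246 (530, 716) with array weights and 162 (48, 114) when a 2-fold change was also required. With the replicate block it was 242 (79, 163); the numbers share only a label, and a-CD4 replicates 2 and 4 but not 1 and 3 correlated best with their own number. Leaving out 1 array in turn gave between 73 and 488 calls, 30 to 193 of them higher and 39 to 295 lower. The settings chosen after seeing the data gave 0 (0 and 0) without a-CD4 replicates 1 and 2, which leaves 2 arrays in that group, and 898 (441, 457) with the T cell gene mean as a covariate, including all 364. The share of higher genes among calls was 44.5%, against 67.1% above the median level, 50.7% with arrays centred on their median, 32.6% with the replicate block and 27.1% without SD-101+anti-PD-1 replicate 5. Other probe set choices, scalings and variance models kept these counts within 1.5 times. With only the 9 arrays compared 341 genes (149, 192) were called, of which 188 were among the 364. The median log2 difference of all genes was 0.05 with arrays centred on their median, against 0.00. Of cell cycle genes 3 rose with the replicate block.

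For the 1 probe set used per gene, no called named gene changed sign under these settings. Of 50 called named genes, 15 kept their call in all 9 fits that left out 1 array. With a-CD4 replicates 1 and 2 both out all 50 lost it; the replicate block ended 14 calls, and fitting only the 9 arrays ended 14, among them Bach2, Cx3cr1 and Foxp3. Some uncalled genes changed sign. Cd8a (main 0.01) was at -0.029 with quantile normalization and spanned -0.23 to 0.51 over the fits that left out 1 array. In those fits Cd8b1 (main -0.12) spanned -0.29 to 0.29, Cd5 (-0.44) -0.69 to 0.0085, Tnf (-0.32) -0.53 to 0.098 and Cd40lg (0.05) -0.016 to 0.13. With array weights Cd8b1 was at 0.22 and Tnf at 0.012, and without a-CD4 replicates 1 and 2 Cd8b1 was at 0.33, Cd5 at 0.30 and Ifi27l2a (main -0.70) at 0.041. Apart from fewer arrays or genes, the cause of these shifts was not tested.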

Other observations

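Circadian clock genes gave 0 calls by limma in 15, though 9 had an unadjusted p under 0.05, 6 of them lower and 3 higher, where 17.9% of all genes did; their median was -0.05. The outputs Dbp and Hlf, both PAR-domain transcription factors, averaged 5.95 and 5.19 in the a-CD4 group, against 7.29 and 6.19 in SD-101+anti-PD-1 (differences -1.335 and -0.9993, adjusted p = 0.0676 and 0.0605). Nfil3, a repressor at the same sites, averaged 7.09 against 5.97 (difference 1.12, adjusted p = 0.165). Collection times are not given in the sources used here. These genes were picked after their values were seen.

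Mast cell and basophil markers had 0 calls by limma in 13 (4 at an unadjusted p under 0.05) and a median of 0.83, with Mcpt2, a mast cell protease, at 1.62 (adjusted p = 0.112). Plasma cell markers had 0 in 10 (2 unadjusted) and a median of -0.20, with the immunoglobulin genes Ighm and Jchain at -1.88 and -1.71 (adjusted p = 0.162 and 0.175). MHC class II presentation genes had 0 in 10 (1 unadjusted) and a median of -0.33, with 9 negative differences. Tissue residency genes had 0 in 13 (2 unadjusted) and a median of -0.19 (0.19 without a-CD4 replicate 2), the smallest p being that of Car2, a carbonic anhydrase, at -1.08 (adjusted p = 0.0574). Immediate early genes had 0 in 26 (3 unadjusted), median -0.02 (0.12 without a-CD4 replicate 2), heat shock genes 0 in 12 (1 unadjusted), median 0.17, and cholesterol synthesis genes 0 in 16 (0 unadjusted), median 0.04. The gamma-delta T, dendritic, eosinophil and ILC2, and erythroid and platelet lists had 0 calls in 6, 10, 8 and 7 genes (0, 1, 1 and 1 unadjusted), with medians of -0.06, 0.30, 0.01 and -0.01.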
